A study of Mus musculus with 4 samples.

Results

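The genes described here encode the moving and regulating parts of the flagellar axoneme: the axonemal dynein chains, the nexin-dynein regulatory complex (N-DRC), the molecular ruler, the radial spokes, the central apparatus and the cilia and flagella associated proteins (CFAP). Members were chosen by symbol. A gene was included if its symbol was Dnah, Dnai, Drc, Rsph or Cfap followed by a digit, or was Dnal1, Dnali1, Ccdc39, Ccdc40, Spag6, Spag6l, Spag16, Spag17 or Hydin. Of the 21936 genes in the count table, 66 met the rule, and all 66 were protein-coding and abundant enough to be tested. They comprised 15 heavy chains (Dnah), 2 other dynein chains (Dnal1 and Dnali1), 5 N-DRC and ruler genes, 8 radial spoke genes, 5 central apparatus genes and 31 CFAP genes. No Dnai symbol was present, because the annotation carries those intermediate chains as Dnaic1 and Dnaic2, which are treated with the related lists near the end.

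The study asked which mRNAs associate with TSSK2, a testis-specific serine kinase of the late chromatoid body (late-CB) in elongating spermatids. Germ cells of adult C57BL/6 mouse testes were cross-linked and sonicated, and the pellet was immunoprecipitated with an anti-TSSK2 antibody (TSSK2-IP, 2 libraries) or with mouse IgG (control IgG-IP, 2 libraries). Both groups were thus from the same strain and tissue, with no allele or drug, and differed by the antibody. Nothing in the labels says whether the 2 libraries of a group came from separate animals, so the p-values measure the spread between these libraries, which may be technical.

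The axoneme is a ring of doublet microtubules around a central pair. Outer and inner dynein arms, each built on heavy chains that hydrolyse ATP, slide the doublets against each other, and the radial spokes and the N-DRC pass signals from the central apparatus to the arms and hold the doublets together. Spermatids build the sperm flagellum with several heavy chains and spoke proteins that differ from those of airway cilia, such as DNAH8 and DNAH17 in place of DNAH5, DNAH9 and DNAH11, and RSPH6A in place of RSPH4A.

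Several members are copies of each other, which matters for a table of counts per gene, because a read from an identical stretch cannot be assigned to 1 copy. The first 60 coding bases of the spoke stalk genes Rsph3a (chr17:7945810-7945869, GRCm38, plus strand) and Rsph3b (chr17:6948466-6948525, minus strand) are shown as the closest pair, with the bases that differ in capitals:
Rsph3a: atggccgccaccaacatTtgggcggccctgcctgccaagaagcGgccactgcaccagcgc
Rsph3b: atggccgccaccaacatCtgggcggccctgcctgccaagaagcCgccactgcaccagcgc
These stretches differed at 2 bases, and the whole coding sequences were 99.2% identical over 1548 aligned bases, with an identical run of 939 bases. Of all 150-base windows of the longest transcript, 52.6% in Rsph3a and 59.4% in Rsph3b were found in the other gene.

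The central apparatus genes Spag6 (chr2:18699070-18699202, plus strand, intron left out) and Spag6l (chr16:16829081-16829219, minus strand, intron left out) were less alike, as the same stretch of both, from the start codon, shows with differing bases in capitals:
Spag6: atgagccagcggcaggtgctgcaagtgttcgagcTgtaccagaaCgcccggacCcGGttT
Spag6l: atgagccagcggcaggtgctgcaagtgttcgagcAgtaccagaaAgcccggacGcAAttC
Their coding sequences were 88.3% identical, and no 150-base window was shared. The spoke head genes Rsph6a (coding bases 621 to 680, chr7:19055365-19057587, plus strand, intron left out) and Rsph4a (coding bases 675 to 734, chr10:33905830-33908117, plus strand, intron left out) are shown as the contrast, a pair that reads tell apart:
Rsph6a: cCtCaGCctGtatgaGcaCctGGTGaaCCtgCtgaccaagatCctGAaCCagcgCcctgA
Rsph4a: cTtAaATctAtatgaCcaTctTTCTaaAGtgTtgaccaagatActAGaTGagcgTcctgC
They differed at 21 of the 60 bases and were 68.5% identical over the coding sequence, with no identical run above 18 bases. Among the heavy chains, the inner arm genes Dnah7a, Dnah7b and Dnah7c were 96.8% to 97.3% identical and shared 10.4% to 13.3% of their windows. In all, 8 of the 66 members shared a 150-base window with another gene. The counts of Rsph3a and Rsph3b are uncertain for this reason, those of the Dnah7 genes to a smaller degree. A further limit is that the exons of 15 members overlap those of another counted gene, on the opposite strand for 13 of them, and the strand setting of the counting is not given in the sources used here.

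Library totals ranged from 3938922 to 9858941 counts. Counts were scaled to normalized CPM, the counts of a gene relative to the library total corrected by a TMM factor, where 1 count corresponded to 0.156 to 0.230 CPM. The TMM factor was 0.652 for control IgG-IP replicate 1, the deepest library, and 1.117 to 1.177 for the others. The control libraries differed from each other far more than the TSSK2-IP libraries did (chi-square per gene of 71 and 3.16, respectively). Markers of the haploid germ cells were abundant in every library. The summed level of 8 elongating spermatid markers, such as Prm1 and Odf1, was 5060.4 and 4573.9 CPM in TSSK2-IP against 12420.3 and 6093.8 CPM in the controls. A few abundant markers carried this gap, since the median over the 8 markers was 429.2 to 480.0 CPM in the 4 libraries and their median log2 fold change between the groups was -0.05. Markers of Sertoli cells, which surround the germ cells, summed to 19.3 to 56.4 CPM over 7 genes, and those of Leydig cells to 16.1 to 38.4 CPM over 6 genes.

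The mRNAs of the sperm-type heavy chains were the most abundant of their family in all 4 libraries. Dnah8, the sperm-type outer arm heavy chain, on chromosome 17 from 30624354 to 30877365 (GRCm38, GENCODE vM21), had 113.3 and 99.8 normalized CPM per kb of exon in TSSK2-IP against 266.8 and 119.3 in the controls. Dnah17, its sperm-type partner in the outer arm, had 55.8 and 50.8 in TSSK2-IP against 157.5 and 69.4 in the controls. Control IgG-IP replicate 1 was the highest library for both, and the other 3 libraries lay close together.
Their airway counterparts were near the bottom. Dnah5 had 2.25 and 3.27 CPM per kb in TSSK2-IP against 0.858 and 2.84 in the controls, and the mean over all libraries was 1.66 for Dnah9 and 0.921 for Dnah11. Here control IgG-IP replicate 1 was the lowest library for each of the 3 genes, the reverse of its place for Dnah8 and Dnah17. Within a library, the level per kb of exon was 30.5 to 311 times higher for Dnah8 than for Dnah5 and 25.3 to 146 times higher for Dnah17 than for Dnah9. The other 10 heavy chains, most of them inner arm chains, lay between, with means from 27.0 CPM per kb (Dnah10) to 46.4 (Dnah14). Neighbours in that middle order, such as Dnah7c (44.2), Dnah12 (43.0) and Dnah3 (40.1), had overlapping ranges over the libraries. The order depends on the length used: per kb of the longest transcript, Dnah7b had a mean of 48.2, against 29.7 per kb of exon.

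**Figure D1:**
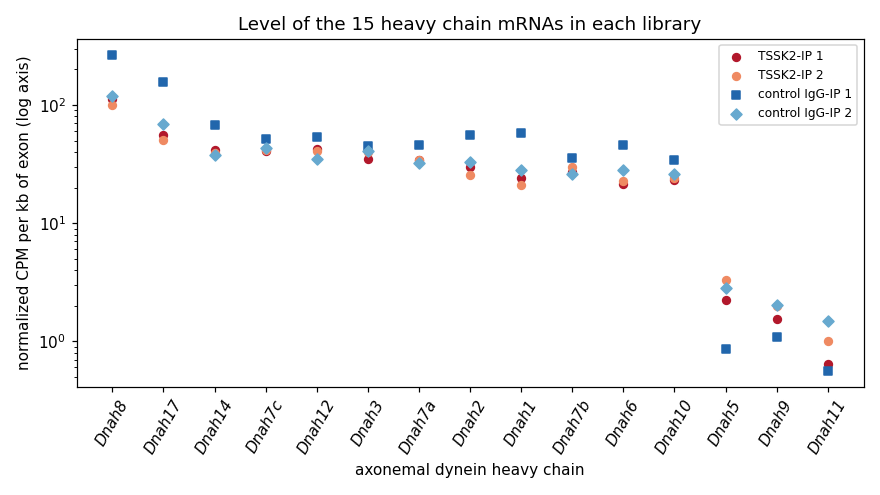
Normalized CPM per kb of exon (log axis) of the 15 axonemal dynein heavy chain mRNAs, ordered by mean level, with 1 point per library (circles, TSSK2-IP; square and diamond, control IgG-IP). Dnah8 and Dnah17 led in every library, Dnah5, Dnah9 and Dnah11 were lowest, and control IgG-IP replicate 1 was above the other libraries for the abundant chains and below them for the 3 scarce ones.

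The spoke head pair had the same arrangement. Rsph6a, the sperm-type gene, had 39.8 and 33.9 CPM per kb of exon in TSSK2-IP against 137.5 and 56.8 in the controls, whereas Rsph4a had 0.511 and 0.678 in TSSK2-IP against 0.342 and 1.20 in the controls. The ratio of Rsph6a to Rsph4a was 47.5 to 402 within a library. Rsph4a was the scarcest of all 66 members, and the only one that did not reach 10 counts in every library. Over all members, the highest mean per kb of exon was 367.4 for Cfap206, of the complex at the base of the radial spokes. Rsph1, a spoke head gene, followed with 334.5 and Dnah8 with 149.8. The lead of Cfap206 came from control IgG-IP replicate 1 alone, with 808.7 against 607.4 for Rsph1. In both TSSK2-IP libraries, and in control IgG-IP replicate 2 (276.5 against 258.4), Rsph1 was above Cfap206. The ratio of Spag6l to Spag6 was 0.879 to 1.67 within a library per kb of exon and 1.20 to 2.29 per kb of the longest transcript. Rsph3a was 1.78 to 2.79 times above Rsph3b, as far as the counting could separate them.

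As a share of each library's raw counts, the 66 genes together took 2.02% and 1.99% in TSSK2-IP against 2.33% and 2.08% in the controls. The 15 heavy chains took about as much as all other members together, 0.997% and 0.958% in TSSK2-IP against 1.09% and 1.01% in the controls, and Dnah8 held 32.7% to 42.5% of the heavy chain counts. By raw share, the control libraries were slightly above the TSSK2-IP libraries and the gap between groups was small. After TMM scaling the members summed to 17413.6 and 17015.4 CPM in TSSK2-IP against 35844.2 and 18796.0 CPM in the controls. The scaled sum of control IgG-IP replicate 1 was thus far above the other 3, which were close to each other.

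**Figure D2:**
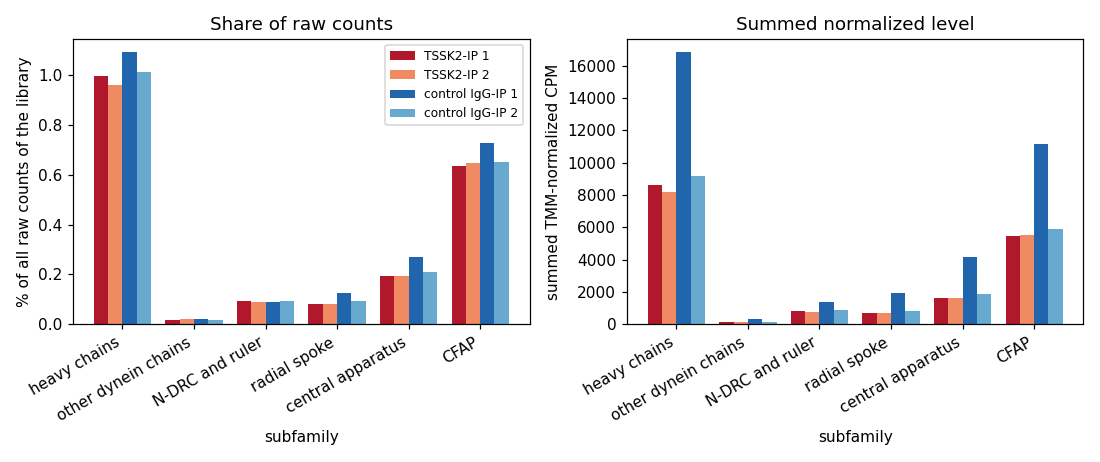
Left, the share of a library's raw counts (%) taken by each of the 6 groups of axonemal genes; right, their summed TMM-normalized CPM; each bar is 1 library. By raw share the heavy chains took 0.958% to 1.09% in all 4 libraries, while their scaled sum was 16822.7 CPM in control IgG-IP replicate 1 and 8189.3 to 9154.3 CPM in the others.

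In TSSK2-IP compared with control IgG-IP, no axonemal gene passed the thresholds, a log2 fold change (log2FC) of 1 or more in either direction together with an adjusted p no higher than 0.05. In the quasi-likelihood test of edgeR, adjusted by Benjamini-Hochberg over 14722 genes, 0 members were called higher and 0 lower, against a background of 0.693% of all genes called higher and 0% called lower, and DESeq2 also called 0 in either direction (0.654% of all genes higher and 0% lower). At an unadjusted p under 0.05, 4 members were higher in TSSK2-IP (Dnal1, Rsph14, Cfap97d2 and Cfap299) where 8.34% of all genes were, and 5 were lower (Rsph6a, Drc3, Dnali1, Cfap53 and Rsph3a) where 4.89% of all genes were. With DESeq2 they were 3 higher (4.02% of all genes) and 12 lower (5.65%). The DESeq2 shares are over 21267 genes, which include genes of low count that the edgeR fit left out. Of the 14722 genes of the edgeR fit, 844 were higher and 1094 lower at an unadjusted p under 0.05 by DESeq2. With 2 libraries in each group, an exact permutation test cannot go below p = 0.333 (two-sided), so each p-value rests on a spread estimated across genes.

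The fitted values leaned to the control side. Of the 66 log2FC values, 53 were below 0 and 13 above, or 80.3% below against 50.8% of all genes tested, of which 49.2% were above, and their median was -0.54 against -0.02 for all genes. A difference of at least 2-fold, without a test, was found for 12 members below (9.88% of all genes) and 3 above (11.1%). Both TSSK2-IP libraries lay below both control libraries for 33 members (21.6% of all genes) and above both for 8 (27.3%), and the groups overlapped for 25 (51.1%). The size of this lean depended on the scaling: with total counts alone, 36 members were below 0 and 30 above and their median was -0.05, while the median of all genes moved by 0.39 to 0.37, so that the members stayed 0.42 below all genes, compared with 0.52 with TMM.

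**Figure D3:**
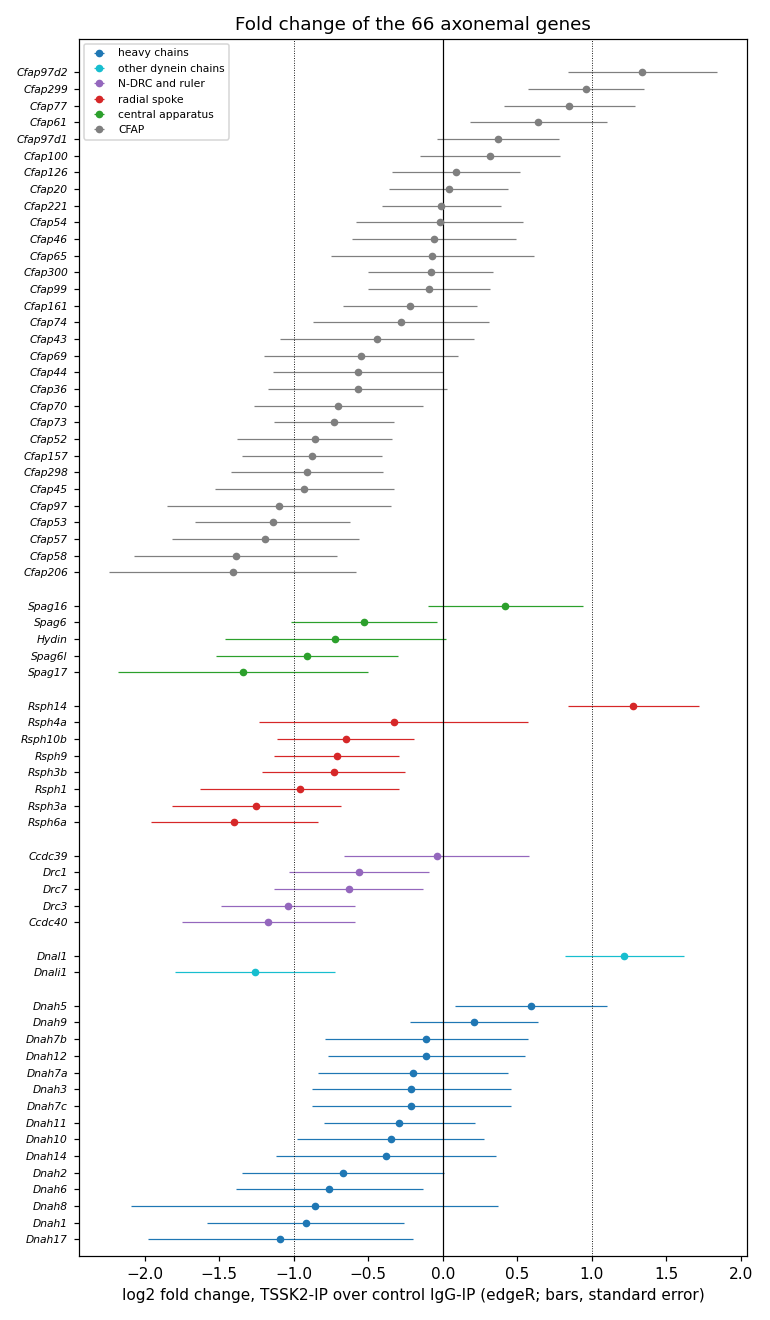
Log2 fold change of TSSK2-IP over control IgG-IP for each of the 66 genes, from edgeR, with its standard error as a bar, coloured by group and sorted within it; dotted lines mark a 2-fold difference. Of the points, 53 lie below 0 and 13 above, and none passed the thresholds.

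Most of the lean went with control IgG-IP replicate 1. That library was the highest of the 4 libraries for 51 of 66 members, or 77.3%, against 35.0% of all genes tested. Its level exceeded that of control IgG-IP replicate 2 by a median of 0.75 on the log2 scale over the members, against -0.15 over all genes. The excess was at least 2-fold for 24 of 66 members, against 2404 of 14722 genes tested. No member differed 2-fold between the TSSK2-IP libraries (0 of 66, with a largest difference of 0.61 on the log2 scale), where 729 of 14722 genes tested did. Without control IgG-IP replicate 1 the median log2FC was -0.08 (all genes 0.05), 38 of 66 members were still below 0 and 43 below the median of all genes, and 4 members were called higher (5.38% of genes) and 0 lower (2.56% of genes), with 10 higher (17.4% of genes) and 12 lower (11.3%) at an unadjusted p under 0.05. Without control IgG-IP replicate 2 it was -0.90 (all genes 0.14), and 3 members were called higher (17.9% of genes) and 31 lower (17.4% of genes), with 9 higher (26.3%) and 46 lower (28.4%) at an unadjusted p under 0.05. Those called higher without control IgG-IP replicate 1 were Dnal1, Rsph14, Cfap299 and Cfap77, and those without replicate 2 were Dnal1, Cfap97d2 and Dnah5. Dnal1 was in both sets. The share of all genes called in both fits, in either direction, was not computed. The 31 comprised 5 heavy chains, Dnali1, 4 N-DRC and ruler genes, 6 radial spoke genes, 3 central apparatus genes and 12 CFAP genes, and 0 of them were called against the other control library. In both fits the remaining control library is taken to vary like the TSSK2-IP libraries, with a common dispersion of 0.0104 in place of 0.135, and the control libraries did not vary so little. By summed level, markers of spermatocytes and of round and elongating spermatids were also highest in control IgG-IP replicate 1. The 8 spermatocyte markers summed to 2922.2 CPM there and to 1762.5 to 2024.1 CPM in the other libraries (median log2FC 0.15), and the 7 round spermatid markers to 1803.9 CPM against 800.6 to 944.3 (median log2FC -0.65). Scarcer markers went the other way. Control IgG-IP replicate 1 was lowest for those of spermatogonia (33.5 CPM against 36.2 to 55.4), Sertoli cells (19.3 against 39.2 to 56.4) and Leydig cells (16.1 against 35.8 to 38.4). It was also lowest for peritubular myoid (17 against 24 to 38.1) and endothelial cells (12.9 against 22.1 to 29.4). For macrophages and erythrocytes it was neither highest nor lowest. The part of cell composition in the members' values was not tested.

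**Figure D4:**
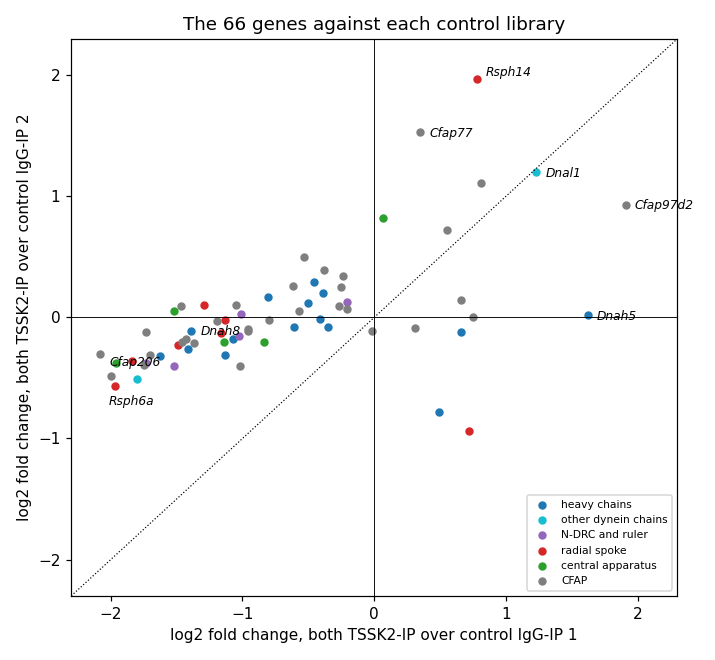
Log2FC of the 66 genes in TSSK2-IP over control IgG-IP replicate 1 (x axis, fit without replicate 2) and over control IgG-IP replicate 2 (y axis, fit without replicate 1); each point is 1 gene, and the dotted line marks equal values. Of the 66, 34 were below 0 on both axes, 10 above 0 on both, 18 below 0 only against replicate 1 and 4 only against replicate 2, and Dnal1 lay near the line at 1.23 and 1.20. Taken singly, 52 members were below 0 against replicate 1 and 38 against replicate 2, where 6750 and 6811 of 14722 genes tested were. The share of all genes on the same side of both was not computed.

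Among the dynein chains, the light chain gene Dnal1 and the light intermediate chain gene Dnali1 pointed in opposite directions. Dnal1, whose product binds an outer arm heavy chain, lies on chromosome 12 from 84114366 to 84147498. It had 53.1 and 64.7 normalized CPM in TSSK2-IP against 24.0 and 26.7 in the controls. Both TSSK2-IP libraries were above both control libraries, and the control libraries were close together. Its log2FC was 1.22 ± 0.40 (SE; edgeR, adjusted p = 0.249), with 1.20 once control IgG-IP replicate 1 was left out and 1.23 once replicate 2 was. Both of those fits used the same TSSK2-IP libraries with a single control library each, so they are not independent. Of its exon bases, 5.53% overlap Pnma1 on the opposite strand. Pnma1 had a log2FC of 0.86 (edgeR, adjusted p = 0.389), and reads of the overlap cannot be told apart without a strand setting.
Dnali1, an inner arm chain, had 97.2 and 102.0 CPM in TSSK2-IP against 330.5 and 148.0 in the controls. Both TSSK2-IP libraries were lower than both control libraries, with control IgG-IP replicate 1 far above all others. Its log2FC was -1.26 ± 0.54 (SE; edgeR, adjusted p = 0.350), but -0.51 against control IgG-IP replicate 2 alone.

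For the heavy chains, 13 of 15 fitted values were below 0 (median -0.29), and 10 of 15 without control IgG-IP replicate 1 (median -0.08). With total counts alone 6 of 15 were below 0 (median 0.14), where the median of all genes was 0.37. With all libraries, 0 of 15 reached an unadjusted p of 0.05 by edgeR in either direction (1 of 15, lower, by DESeq2). Dnah8 had 3038.9 and 2677.1 CPM in TSSK2-IP against 7156.8 and 3199.9 in the controls, a log2FC of -0.86 ± 1.23 (SE), which moved to -0.11 without control IgG-IP replicate 1. Dnah1, an inner arm heavy chain, had the smallest p among those below 0, with 314.9 and 276.7 CPM in TSSK2-IP against 750.2 and 368.5 in the controls. Its log2FC of -0.92 had a standard error of 0.66 and was -0.26 without control IgG-IP replicate 1. The 3 Dnah7 copies differed between the groups by less than their standard errors, with log2FC values of -0.20 (Dnah7a), -0.11 (Dnah7b) and -0.21 (Dnah7c) and standard errors of 0.64, 0.68 and 0.67.
The scarce Dnah5 ran the other way, at 35.2 and 51.2 CPM in TSSK2-IP against 13.4 and 44.3 in the controls. Its groups overlapped, and its log2FC was 0.59 with all libraries, 0.02 without control IgG-IP replicate 1 and 1.62 without replicate 2.

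All 5 N-DRC and ruler genes had values below 0 (median -0.63; 4 of 5 and -0.12 with total counts alone). Without control IgG-IP replicate 1, 3 of 5 were below 0 (median -0.15). Drc3, a subunit of the N-DRC, had 43.5 and 38.8 CPM in TSSK2-IP against 112.8 and 56.3 in the controls. Both of its TSSK2-IP libraries lay below both control libraries, with a log2FC of -1.04 ± 0.45 (SE; edgeR, adjusted p = 0.349) and -0.40 without control IgG-IP replicate 1. Ccdc39 and Ccdc40, which together form the ruler that sets the spacing of spokes and inner arms along the doublet, had unlike values. Ccdc39 had 424.8 and 399.8 CPM in TSSK2-IP against 453.7 and 392.4 in the controls, and Ccdc40 had 144.7 and 127.3 in TSSK2-IP against 428.4 and 183.8 in the controls. The groups overlapped for Ccdc39 (log2FC -0.04 ± 0.62, SE) and were apart for Ccdc40 (-1.17 ± 0.58, SE), the difference between the genes not having been tested. Without control IgG-IP replicate 1 the values were 0.13 for Ccdc39 and -0.38 for Ccdc40. Of the exon bases of Ccdc39, 16.9% overlap Ttc14 on the opposite strand.

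Of the 8 radial spoke genes, 7 had values below 0 (median -0.72; 7 of 8 and -0.17 with total counts alone). Without control IgG-IP replicate 1, 6 of 8 were below 0 (median -0.18). Rsph6a, the sperm-type spoke head gene, had 99.3 and 84.7 CPM in TSSK2-IP against 343.3 and 141.8 in the controls. Both TSSK2-IP libraries were below both control libraries, with a log2FC of -1.40 ± 0.56 (SE; edgeR, adjusted p = 0.319), and -0.57 without control IgG-IP replicate 1. Rsph3a had 114.6 and 106.6 CPM in TSSK2-IP against 377.0 and 147.3 in the controls, and its near copy Rsph3b had 57.8 and 61.8 against 139.5 and 58.1. The groups were apart for Rsph3a and overlapped for Rsph3b, and control IgG-IP replicate 1 was the highest library for both. Their log2FC values were -1.25 and -0.73, and Rsph1 had one of -0.96, none of which passed. Without control IgG-IP replicate 1 they were -0.36, 0.10 and -0.23.
Rsph14 was the exception. It had 36.9 and 43.0 CPM in TSSK2-IP against 22.2 and 10.6 in the controls, both TSSK2-IP libraries above both control libraries. Its log2FC was 1.28 ± 0.44 (SE; edgeR, adjusted p = 0.268), with 1.97 when control IgG-IP replicate 1 was left out and 0.78 when replicate 2 was. No counted gene overlaps its exons.

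Among the central apparatus genes, 4 of 5 had values below 0 (median -0.72; 4 of 5 and -0.21 with total counts alone). Without control IgG-IP replicate 1, 3 of 5 were below 0 (median -0.20). With all libraries, 0 of 5 reached an unadjusted p of 0.05 by edgeR (1 of 5, lower, by DESeq2). Spag17, a large scaffold of the projections of the central pair, had 574.4 and 555.3 CPM in TSSK2-IP against 2100.1 and 762.8 in the controls. As for Dnah8 and Cfap206, 3 libraries were near each other and control IgG-IP replicate 1 was well above them, and the log2FC of -1.34 ± 0.84 (SE) became -0.38 without that library. Hydin, a scaffold of another central pair projection, had 560.4 and 572.8 CPM in TSSK2-IP against 1192.6 and 678.5 in the controls (log2FC -0.72 ± 0.74, SE). Spag6l and Spag6 had log2FC values of -0.91 and -0.53. Leaving out control IgG-IP replicate 1 gave -0.20 for Hydin, 0.05 for Spag6l and -0.20 for Spag6. Spag16, whose product sits with SPAG6 and SPAG17 in the central apparatus, was above 0 at 0.42 ± 0.52 (SE), with 226.8 and 221.5 CPM in TSSK2-IP against 203.6 and 132.3 in the controls, and it had 0.82 against control IgG-IP replicate 2 alone and 0.07 against replicate 1 alone.

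The 31 CFAP genes ranged from -1.41 to 1.34 on the log2 scale (median -0.28, 23 below 0). With total counts alone their median was 0.20 with 14 below 0, where the median of all genes was 0.37. Without control IgG-IP replicate 1 their median was 0.0 with 15 below 0. Cfap206 had 502.9 and 496.8 CPM in TSSK2-IP against 2008.8 and 642.0 in the controls. Its TSSK2-IP libraries were nearly equal while its control libraries were far apart, so that the log2FC of -1.41 ± 0.83 (SE) became -0.30 without control IgG-IP replicate 1. Cfap53, which encodes a protein inside the doublet microtubules, had 71.5 and 84.7 CPM in TSSK2-IP against 242.1 and 101.1 in the controls (log2FC -1.14; edgeR, adjusted p = 0.367), with -0.31 when control IgG-IP replicate 1 was left out.
On the other side, Cfap97d2 had 13.9 and 20.6 CPM in TSSK2-IP against 4.37 and 9.42 in the controls, and Cfap299 had 57.2 and 62.4 in TSSK2-IP against 32.6 and 28.7 in the controls. For both genes the TSSK2-IP libraries were above the control libraries without overlap. Their log2FC values were 1.34 and 0.96 (SE 0.50 and 0.39; edgeR, adjusted p = 0.293 and 0.330). Cfap97d2 had 0.93 when compared with control IgG-IP replicate 2 alone and 1.91 with replicate 1 alone. Cfap299 had 1.11 against control IgG-IP replicate 2 alone and 0.81 against replicate 1 alone, and 19.1% of its exon bases lie within E030032P16Rik, an annotated gene on the same strand. Members with values near 0 included Cfap65 (618.0 and 579.8 CPM in TSSK2-IP, 661.9 and 592.8 in the controls) and Cfap46 (258.3 and 247.8 in TSSK2-IP, 244.5 and 284.7 in the controls), both chosen after their values were seen as examples of abundant mRNAs that differed little in all 4 libraries.

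With all libraries and TMM scaling, values below 0 were more frequent among the abundant members. When the 66 genes were ordered by mean CPM and divided into 3 parts of 22, all 22 in the most abundant part (392.4 to 4018.2 CPM) had values below 0, as had 19 in the middle part and 12 in the least abundant part (2.49 to 93.7 CPM). These counts changed with 1 library and with the scaling: in the same order of parts, 15, 14 and 9 were below 0 without control IgG-IP replicate 1, and 12, 16 and 8 with total counts alone. Total counts alone also moved the median of all genes to 0.37, so counts below 0 cannot show whether the relation with level itself changed. That library also entered the mean used for the ordering. Across the 66 genes, the Spearman correlation of log2FC with level was -0.41, and over 14710 tested genes with annotated length and GC content it was -0.21. It was -0.33 with the GC content of the longest transcript over the members (-0.14 over all genes) and 0.13 with the length of the exons (-0.06 over all genes). These are descriptions across genes that share libraries and depth, and genes are not independent replicates.

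Related genes under other symbols were also mostly below 0, to varying degrees. No gene was called in either direction in any of 8 lists, which held 83 tested genes (0 higher and 0 lower by edgeR, and also by DESeq2). Their median log2FC values were -0.43 for 16 dynein chains under other symbols (11 below 0), -0.53 for 9 cytoplasmic dynein chains (7 below 0), -0.45 for 12 dynein assembly factors (8 below 0) and -0.43 for 6 genes of the outer arm docking complex (4 below 0). The 16 include light chains of the Dynll, Dynlrb and Dynlt families, not all of them particular to the axoneme. The medians were -0.91 for 7 other N-DRC genes (6 below 0), -0.57 for 9 other spoke and central apparatus genes (7 below 0) and -0.65 for 14 tektins and microtubule inner proteins (13 below 0). For 10 genes that regulate cilia or germ cell transcription, such as Foxj1 and Crem, the median was -0.28 (7 below 0). The cytoplasmic dyneins, motors that do not belong to the axoneme, had a median of similar size to that of the axonemal members, the difference not having been tested. Without control IgG-IP replicate 1 the medians of the 8 lists lay between -0.20 and 0.13, and 41 of the 83 genes were below 0 in place of 63.
In these lists, 2 genes reached an unadjusted p under 0.05 on the TSSK2-IP side and 4 on the control side by edgeR, where 8.34% and 4.89% of all genes did. By DESeq2 the numbers were 1 and 14, where 4.02% and 5.65% of 21267 genes did. Pih1d3, a factor for the assembly of dynein arms in the cytoplasm, had 20.1 and 27.2 CPM in TSSK2-IP against 4.84 and 13.1 in the controls, and Tctex1d2, a dynein light chain, had 53.3 and 63.9 in TSSK2-IP against 30.6 and 34.0 in the controls. Both had TSSK2-IP libraries above both control libraries, with log2FC values of 1.42 and 0.86 (edgeR, adjusted p = 0.272 and 0.369). On the control side, Ccdc65, an N-DRC subunit, had 159.6 and 162.3 CPM in TSSK2-IP against 723.5 and 224.3 in the controls (log2FC -1.56; edgeR, adjusted p = 0.349), with control IgG-IP replicate 1 again far above the other libraries. The others on that side were Ttc25, Tcte1 and E2f4.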

How the data were processed

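RNA from 2 TSSK2-IP and 2 control IgG-IP samples of mouse testis germ cells was sequenced as directional libraries without rRNA removal. According to the submitters' processing notes, the authors used Trimmomatic 0.39, STAR 2.7.10a and featureCounts 2.0.3 on GRCm38, and they deposited raw counts per gene without normalization. How reads of several genes were counted is not given in the sources used here.

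Gene symbols and exons came from GENCODE vM21, which held 21894 of the 21936 identifiers. The antisense gene Dnah2os is no member. Counts were fitted with edgeR 4.0.16 in R 4.3.3 (TMM, filterByExpr, glmQLFit, glmQLFTest; group as the only factor) on 14722 genes, with Benjamini-Hochberg adjustment over all of them. DESeq2 1.42.0, other scalings and filters, offsets for GC content and length, the replicate number as a block and leaving out each library were alternatives. Scaling by total counts alone was added after seeing the data. The fits were tested on simulated data. Shared windows were exact matches of 150 bases among transcripts, and coding sequences were aligned with Biopython 1.88. Floors of single counts cover counting error only.

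Members, lists and the rule for naming genes were chosen with earlier results of these data known. The rule named members at an unadjusted p under 0.05, those of smallest p in each direction and of highest level per kb of exon in each group, near copies and those listed singly by symbol. Other cell type markers served as a check only.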

Additional observations from a re-analysis of the deposited data

How the results depend on the processing

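No member passed the thresholds in the fits with all 4 libraries, or without either TSSK2-IP library. Leaving out each library in turn gave 0 to 4 members called higher and 0 to 31 called lower, and 0 to 10 higher and 0 to 46 lower at an unadjusted p under 0.05, the upper ends all coming from fits without a control library. Of the members at an unadjusted p under 0.05, the number lower was 13 with upper-quartile normalization (8.84% of all genes), 3 without a filter on low counts (5.31% of 21267 genes) and 12 with DESeq2 (5.65% of 21267 genes). With the replicate number as a block it was 0 (2.20%). The co-IP protocol of the paper shared out lysate between anti-TSSK2 and IgG beads, so same-numbered libraries may be pairs. The labels do not say so. Same-numbered libraries correlated at 0.126 in their deviations from the group means, which cannot decide this with 2 libraries in each group. The main fit did not take the numbers as pairs. The block called 0 members in either direction, against 274 genes higher and 3 lower of 14722 tested. Scaling by total counts alone moved the median of all genes by 0.39, to 0.37. It gave medians of 0.14 for the heavy chains, 0.20 for the CFAP genes and 0.45 for the other dynein chains, in place of -0.29, -0.28 and -0.02, and turned Ccdc39 (0.40), Dnah7a (0.27), Dnah7b (0.36) and Dnah7c (0.23). Ccdc39 also turned with at least 10 counts in every library (0.03). Leaving out each library in turn gave log2FC values of -0.21 to 0.13 for Ccdc39, -0.50 to 0.12 for Dnah7a, -0.39 to 0.20 for Dnah7b, -1.29 to 0.10 for Rsph3b and -1.52 to 0.05 for Spag6l, each of which was above 0 only in the fit without control IgG-IP replicate 1. Of 300 values for the 25 named members over the alternatives, 270 kept their direction and side of the threshold, 20 passed it in the same direction and 10 changed sign. The cause of these changes was not tested.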
